A study of Mus musculus with 36 samples.

Results

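Collagen genes were followed through libraries of sorted P-bodies, cytoplasm, polysomes and total RNA from mouse embryonic fibroblasts, cells in early reprogramming and embryonic stem (ES) cells. The members are the 44 genes whose symbol has the form Col, number, a, number, such as Col1a1. They are 44 of 25239 genes in the P-body and cytoplasm table, of 25229 in the polysome and total RNA table, and of 48440 in the table of the Ago2 knockout. The rule uses symbols and no measured value, although it was set with earlier results of these data known. Each was placed in a class by textbook structure, which gave 11 fibrillar collagens, 9 FACIT collagens (fibril-associated collagens with interrupted triple helices), 6 basement membrane chains, 6 beaded filament chains, 4 transmembrane collagens, 3 short-chain network collagens, 2 multiplexins, 1 anchoring fibril collagen and 2 others.

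P-bodies are cytoplasmic granules of RNA and protein, and in this study they were sorted as particles that carried GFP-LSM14A, a tagged P-body protein expressed from a lentivirus with the EF1a promoter. Cytoplasm libraries came from the same lysates before sorting. That fraction was a resuspended pellet, spun down after nuclei were removed, so RNA left in the supernatant is not in it. The P-body and cytoplasm groups were naive ES cells grown with inhibitors and LIF, primed ES cells grown with activin A and bFGF, embryonic fibroblasts (MEF control), and MEFs after 3 days of doxycycline with a control shRNA (day 3 control) or an shRNA against Nudt21, a factor in the choice of polyadenylation sites (day 3 NudT21). Each had 2 libraries per fraction, and so did Ago2 knockout ES cells, which were CRISPR clones grown from single cells. The induction medium of the day 3 cells also held LIF and ascorbic acid, which the MEF growth medium did not list. Between day 3 and MEFs, medium and reprogramming factors therefore cannot be told apart. The MEFs, and so all the day 3 cells, carried M2-rtTA at Rosa26, an EGFP reporter driven by Pou5f1 sequences, and the doxycycline-inducible reprogramming factors (OKSM) in the 3′ UTR of Col1a1, so Col1a1 itself is an engineered locus in every fibroblast and day 3 library. Polysome-bound and total RNA were taken, 3 libraries each, from a single naive ES clone with both Ddx6 alleles fused to a degron, without (control) or with (DDX6 degron) the degrading compound dTAG-13. All these cells were treated with cycloheximide, which holds ribosomes on RNA, before lysis. Per the paper, gradient fractions that contained ribosomes by UV signal were pooled. That ribosome-bound pool is what is called polysome-bound here.

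Collagens are the main structural proteins of the extracellular matrix. Each chain is built of repeats in which glycine comes first and proline or hydroxyproline often follows, and chains of this kind wind into a triple helix. The chains are made on the endoplasmic reticulum, where prolines and lysines are hydroxylated and HSP47 (Serpinh1) binds the helix, and the fibrillar types are trimmed and cross-linked outside the cell. Fibroblasts are the classic source of collagens I, III, V and VI, while collagens IV and XVIII belong to basement membranes, the matrix that early embryonic epithelia lay down.

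The repeat can be read in the genes themselves. The helix of a fibrillar collagen is encoded by many short exons, a large share of them 54 bases long, each starting on a glycine codon. Coding exons of 54 bases number 21 in Col1a1, 24 in Col1a2 and 24 in Col3a1. In Col4a1 and Col18a1, which are not fibrillar, they number only 2 and 3. Such an exon is shown for the chains that the results turn on, from the mm10 genome in the direction of transcription with glycine codons in capitals. They are exon 8 of 51 of Col1a1 at chr11:94939904-94939957 on the plus strand, exon 8 of 52 of Col1a2 at chr6:4515481-4515534 on the plus strand, exon 6 of 51 of Col3a1 at chr1:45325360-45325413 on the plus strand, exon 7 of 52 of Col4a1 at chr8:11245211-11245264 on the minus strand, and exon 27 of 41 of Col18a1 at chr10:77067379-77067432 on the minus strand.
Col1a1: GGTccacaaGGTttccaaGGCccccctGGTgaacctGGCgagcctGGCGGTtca
Col1a2: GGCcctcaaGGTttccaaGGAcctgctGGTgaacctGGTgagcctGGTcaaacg
Col3a1: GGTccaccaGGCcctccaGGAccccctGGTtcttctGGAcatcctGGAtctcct
Col4a1: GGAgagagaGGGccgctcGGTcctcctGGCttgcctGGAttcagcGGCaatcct
Col18a1: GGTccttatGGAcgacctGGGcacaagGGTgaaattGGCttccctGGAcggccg

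Glycine took a median of 24.2% of the codons of the 44 genes, against 6.71% over the 13109 coding genes with at least 20 glycine codons. The longest unbroken run of such repeats held 338 glycines in Col1a1, 339 in Col1a2 and 344 in Col3a1. It held only 40 in Col4a1, 66 in Col4a2 and 30 in Col18a1, whose helices are interrupted. The codon GGT made up 50.6% of the glycine codons of Col1a1 and 49.9% of those of Col1a2, the chains of type I collagen, against a median of 21.4% over the collagen genes.

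The P-body and cytoplasm libraries held 6769727 to 31185799 reads on genes, the Ago2 knockout libraries 15624342 to 17486206, and the polysome and total RNA libraries 13308776 to 29362187. The ES cell P-body and cytoplasm libraries were the shallowest of their table, so cell type and depth cannot be told apart there. All 11 fibroblast markers of a fixed list reached 1 CPM (counts scaled by the reads on genes of each library) in every MEF library, and all 8 ES cell markers did in every ES cell library, while in MEF libraries the ES markers summed to at most 1.48 CPM. Nudt21 stood at 89.1 and 92.2 CPM in the cytoplasm of the 2 day 3 control libraries and at 5.72 and 5.01 CPM after the knockdown. Ago2 stood at 2.57 to 4.52 CPM in the knockout libraries, and Ddx6 RNA was present in the degron cells, since the degron acts on the protein. In bulk RNA of this kind fewer expressing cells and less RNA per cell cannot be told apart. The labels do not say what a replicate number stands for, while the paper describes its sequencing replicates as biological. The p-values measure the spread between these libraries. Comparisons that name the same group share its libraries.

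Collagens made up several percent of the reads in MEF cytoplasm libraries. The 44 genes took 4.97% and 4.56% of the reads of the MEF cytoplasm libraries. At least 1 CPM was reached by 28 of the 44 genes and at least 100 CPM by 18, and none was without a read. Col1a2, a chain of type I collagen, had 12460 and 11480 CPM, and its partner Col1a1 had 12610 and 11330 CPM. Col3a1, which forms type III collagen in the same fibrils, had 10520 and 9678 CPM. These 3 genes stood above all other collagens in both libraries. Per kilobase of the longest transcript the order was Col1a2 at 2238 CPM per kilobase, Col1a1 at 2018, Col3a1 at 1815, Col5a1 at 478, Col5a2 at 316 and Col6a1 at 293. With the median transcript length in place of the longest, Col1a1 came first.

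In P-bodies of the same cells the collagens took a smaller share, 1.52% and 1.55% of reads, a ratio of 3.10 between the mean cytoplasm and P-body shares. P-body enrichment is given here as the log2 fold change from cytoplasm to P-body, with the standard error of the edgeR quasi-likelihood fit, so that values below 0 are depletion. Of 40 members with enough reads to test (at least 10 over the libraries), 26 were lower and 3 higher in P-bodies at an adjusted p under 0.05, where 28.7% of all genes tested were lower and 26.6% higher. The median was -1.25 for the members and 0.03 for all genes. All 19 members with a mean of 10 CPM or more were lower, by -3.11 to -0.57. The shares over all genes are not limited to genes at that level, so they are no background for this count. These numbers describe the list and are no test of it.

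**Figure D1:**
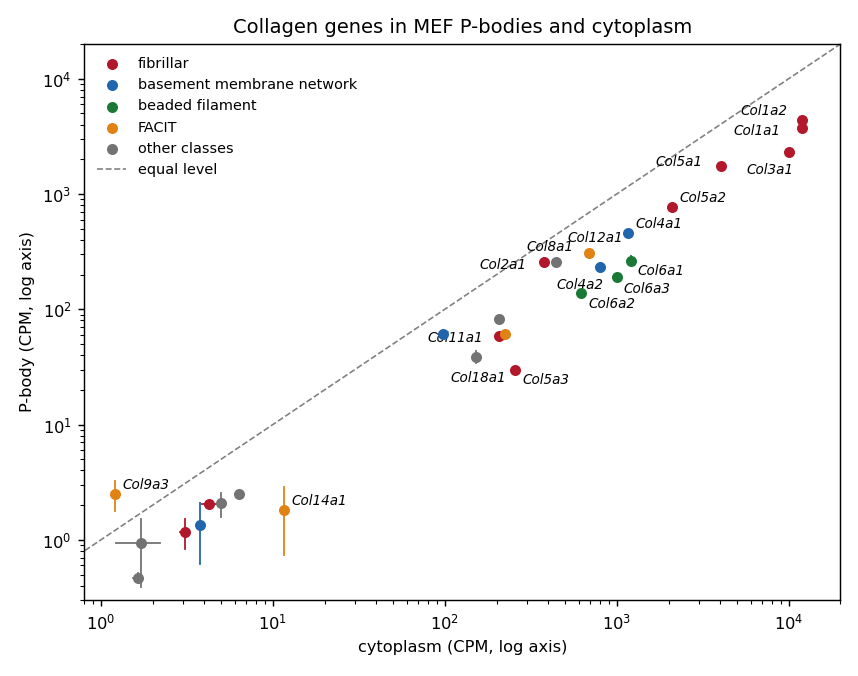
Level of each collagen gene with at least 1 CPM in MEF cytoplasm (x axis, CPM, log scale) against its level in MEF P-bodies (y axis, CPM, log scale). Points are means of 2 libraries, thin lines span the 2 libraries, colours give the class and the dashed line marks equal level. All 19 members with a mean of 10 CPM or more lie below the line, with Col1a1, Col1a2 and Col3a1 at the upper right.

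The fibrillar chains were depleted from MEF P-bodies almost throughout, with 10 of 11 lower and 1 higher. Col1a1 had 3408 and 4080 CPM in P-bodies against 12610 and 11330 in cytoplasm, a log2 fold change of -1.70 ± 0.10 (edgeR adjusted p = 3.65e-06). Col1a2 had 4294 and 4385 CPM in P-bodies against 12460 and 11480 in cytoplasm (-1.48 ± 0.07). Both P-body libraries lay far below both cytoplasm libraries for either chain. Col3a1, at 2412 and 2177 CPM in P-bodies, differed more (-2.16 ± 0.08, edgeR adjusted p = 9.96e-07). Col5a1 and Col5a2, chains of collagen V that set fibril width, differed by -1.23 ± 0.07 and -1.46 ± 0.09, and Col11a1, of the related collagen XI, by -1.85 ± 0.09. The largest depletion of any called member with at least 1 CPM was that of Col5a3, with 30.77 and 29.04 CPM in P-bodies against 266.7 and 243.4 in cytoplasm (-3.11 ± 0.10). Col2a1, the collagen of cartilage, had 237.0 and 279.4 CPM in P-bodies and 395.2 and 359.7 in cytoplasm. Its difference was the smallest among the abundant members at -0.57 ± 0.10 and was lost without MEF cytoplasm replicate 1 (edgeR adjusted p = 0.0612).

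Network-forming collagens showed the same direction. Of the beaded filament chains of collagen VI, which link cells to the surrounding matrix, Col6a3 had 196.2 and 184.6 CPM in P-bodies against 1051 and 946.9 in cytoplasm (-2.41 ± 0.09). Col6a1 and Col6a2 followed at -2.21 ± 0.10 and -2.20 ± 0.10. The basement membrane chain Col4a1 had 463.3 and 449.0 CPM in P-bodies against 1219 and 1113 in cytoplasm (-1.37 ± 0.08), and Col4a2 had 243.0 and 221.4 against 838.8 and 759.8 (-1.80 ± 0.09). In every case the libraries of the 2 fractions did not overlap. Of the 6 basement membrane chains 4 were lower, of the 5 beaded filament chains tested 3, and both multiplexins were lower, with Col18a1, the precursor of endostatin, at -1.98 ± 0.13. Col12a1 and Col14a1, FACIT collagens of the fibril surface, differed by -1.18 ± 0.09 and -2.71 ± 0.43. Col7a1, which anchors the epidermis, differed by -1.35.

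The 3 members that were higher in MEF P-bodies were scarce. Col11a2 had 1.74 and 1.97 CPM in P-bodies and 0.26 and 0.40 CPM in cytoplasm (2.47 ± 0.50, edgeR adjusted p = 0.00246). Col9a3 had 1.78 and 3.21 CPM in P-bodies and 1.15 and 1.26 CPM in cytoplasm (1.03 ± 0.39, edgeR adjusted p = 0.0485), a call that ended when any of 3 of the 4 libraries was left out (largest edgeR adjusted p = 0.262). Exons of Col9a3 also overlap those of Tcfl5, and reads of overlapping genes are uncertain without strand. The transmembrane collagen Col23a1, named for completeness at a mean of 0.66 CPM, differed by 1.97.

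Markers of lung epithelium had no read in MEF cytoplasm and summed to 5.97 CPM in MEF P-body replicate 1 and 88.8 CPM in replicate 2. All 5 listed markers were called higher in MEF P-bodies, among them Scgb1a1 at 3.60 and 43.6 CPM and Sftpc at 1.94 and 42.4 CPM. Both P-body libraries held these markers, so leaving out either library cannot remove that RNA. Its part in the collagen values was not tested. Fibroblast markers summed to 2960 and 3062 CPM in MEF cytoplasm and to 5771 and 5482 CPM in the P-bodies, and of the 11 markers 5 were higher and 5 lower in P-bodies, with a median of -0.16.

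Transcript length moved with enrichment over all genes, with a Spearman correlation across genes of -0.45 in MEFs (genes are not independent replicates), and collagen transcripts are long. After a smooth trend with length and GC content over all genes was subtracted, the median of the members in MEFs was -0.61. Among the members themselves the correlation with length was 0.022.

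Beside 28.7% of all genes lower and 26.6% higher, genes that process collagens were called in MEF P-bodies as follows. Of 15 genes for prolyl and lysyl hydroxylation 9 were lower and 1 higher, of 14 for folding and export 11 were lower and 1 higher, of 6 for propeptide removal 4 were lower, and of 5 for cross-linking 4 were lower. Of 28 secreted matrix genes outside the collagens 24 were lower and 2 higher, with a median of -1.74. Serpinh1, the collagen chaperone, had 1270 and 1118 CPM in P-bodies against 3349 and 3285 in cytoplasm (-1.49 ± 0.08). Lox, which starts the cross-links, had 667.7 and 663.8 CPM in P-bodies against 2045 and 1948 in cytoplasm (-1.60 ± 0.07). The hydroxylase genes P4ha1 and Plod2 each differed by -0.88, the shared subunit P4hb by -0.65, Plod1 by -1.67 and the cross-linking gene Loxl2 by -1.85. Against this direction stood Ppib and Fkbp7, peptidyl-prolyl isomerases of the endoplasmic reticulum. Ppib had 384.1 and 379.6 CPM in P-bodies and 173.2 and 183.3 CPM in cytoplasm (1.08), and Fkbp7 had 144.1 and 108.9 CPM in P-bodies and 55.2 and 62.3 CPM in cytoplasm (1.09).

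After 3 days of reprogramming the cytoplasm held far less collagen RNA, and the loss was unequal between classes. The 44 genes took 1.13% and 1.09% of reads in day 3 control cytoplasm, a mean 4.28 times lower than in MEFs. Of 42 members tested 21 were lower and 11 higher, where 33.7% of all genes were lower and 35.5% higher, and the medians were -0.91 for the members and 0.04 for all genes. Fibrillar collagens fell in 10 of 11 cases with a median of -3.45, while of the 6 basement membrane chains 3 rose and 1 fell. Markers of cell types moved as well. Of the 11 fibroblast markers 8 were lower and 3 higher (median -1.63), with a sum of 3033 and 3036 CPM, and 5 of 7 cartilage markers and all 3 muscle markers tested were lower. ES cell markers summed to 333.1 and 323.7 CPM at day 3 against at most 1.48 in MEFs, and endothelial markers to 212.6 and 201.5 CPM against 1.06 and 1.89, with 2 of 5 called higher. Which cells these marker sums came from, and their part in the collagen changes, was not tested.

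Col1a1 went from 12610 and 11330 CPM in MEFs to 867.3 and 898.8 CPM at day 3 (-3.92 ± 0.06, edgeR adjusted p = 7.69e-17). Its partner Col1a2 fell less, from 12460 and 11480 CPM to 3635 and 3529 CPM (-1.90 ± 0.05, edgeR adjusted p = 2.76e-14). Col3a1 fell to 835.7 and 774.3 CPM (-3.81 ± 0.06) and Col5a1 to 400.5 and 401.7 CPM (-3.48 ± 0.06). In each of them the MEF and day 3 libraries lay far apart. The deepest fall was that of Col7a1, from 216.1 and 195.2 CPM to 5.12 and 5.08 CPM (-5.49 ± 0.09). Col27a1, a minor fibrillar collagen, fell by 3.96 on the log2 scale. Collagen VI fell moderately, with Col6a3 at -1.62, Col6a2 at -1.48 and Col6a1 at -1.24, as did Col2a1 at -1.49, Col11a1 at -0.87 and Col18a1 at -0.74. Col12a1 fell by 3.43, Col5a3 by 3.45 and Col5a2 by 3.14 on the log2 scale.

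The genes that rose included both main basement membrane chains. Col4a1 rose from 1219 and 1113 CPM to 1906 and 1821 CPM (0.52 ± 0.06, edgeR adjusted p = 5.02e-07) and Col4a2 from 838.8 and 759.8 CPM to 1326 and 1277 CPM (0.54 ± 0.06, edgeR adjusted p = 4.01e-07). These genes start 21 bases apart on chromosome 8 and run in opposite directions, with starts at 11312826 for Col4a1 and 11312805 for Col4a2 in GRCm38.p6, so their first exons overlap and reads there are uncertain. Col15a1, a multiplexin of basement membrane zones, rose from 6.41 and 6.24 CPM to 46.2 and 45.0 CPM (2.69 ± 0.11, edgeR adjusted p = 4.69e-12). The transmembrane collagens Col23a1 (3.46 ± 0.43) and Col17a1 (1.32) rose at low levels, and the call on Col17a1 ended without day 3 control cytoplasm replicate 2 (edgeR adjusted p = 0.0749). Per kilobase the order in day 3 cytoplasm was Col1a2 at 670 CPM per kilobase, Col4a1 at 282, Col4a2 at 202, Col1a1 at 149, Col3a1 at 145 and Col6a1 at 139, and the ranges of Col1a1 and Col3a1 overlapped.

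**Figure D2:**
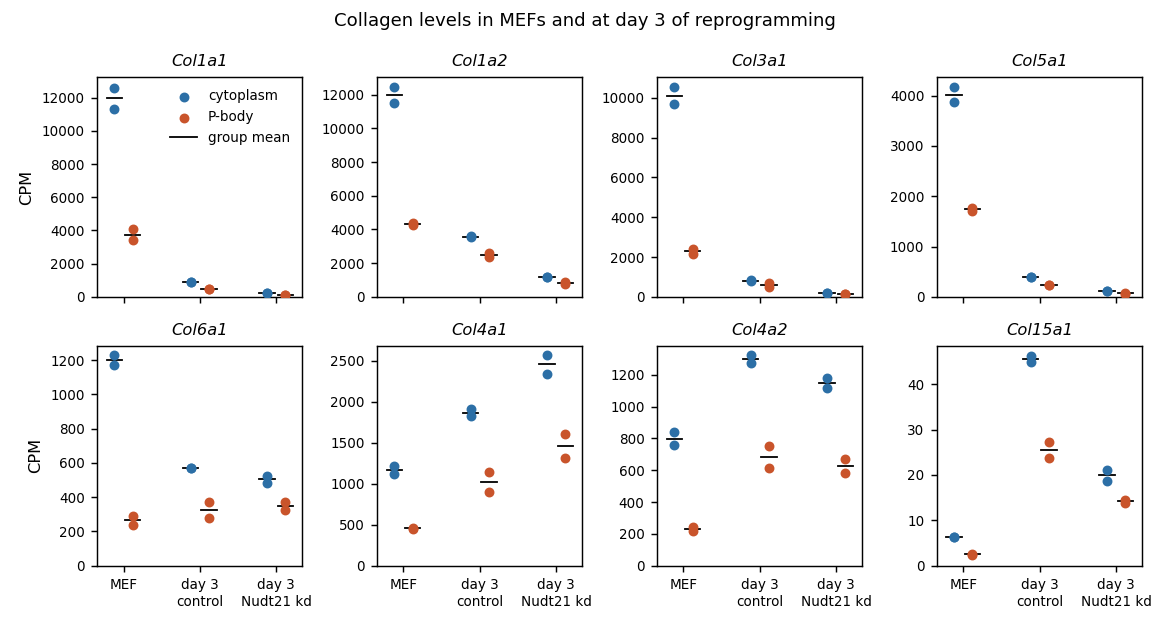
CPM per library (y axis, linear from 0, scaled for each gene) of 8 collagen genes in MEF, day 3 control and day 3 Nudt21 knockdown cells (x axis). Cytoplasm is blue, P-body orange, each point is 1 library and bars are means of 2. Col1a1, Col3a1 and Col5a1 step down at day 3 and again with the knockdown, Col4a1 steps up, and P-body values lie below cytoplasm values.

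Some chains that assemble together changed apart. Type I collagen takes more of the chain from Col1a1 than from Col1a2, and the ratio of Col1a1 to Col1a2, both per kilobase of the longest transcript, was 0.913 and 0.890 in MEF cytoplasm. It was 0.215 and 0.230 in day 3 control cytoplasm and 0.179 and 0.187 with the Nudt21 knockdown. In P-bodies it was 0.716 and 0.839 in MEFs, 0.169 and 0.175 at day 3 and 0.123 and 0.128 with the knockdown. The ratio was lower in P-bodies than in cytoplasm in all 3 conditions, without overlap of the libraries. Col1a1 carries the reprogramming cassette in these cells, and the part of that allele in the ratio was not tested. For collagen IV the ratio of Col4a1 to Col4a2 was 1.42 and 1.43 in MEF cytoplasm and 1.40 and 1.39 at day 3, and then 2.05 and 2.13 with the knockdown. For collagen V the ratio of Col5a1 to Col5a2 went from 1.53 and 1.49 in MEFs to 1.13 and 1.26 at day 3 and 0.567 and 0.591 with the knockdown. For collagen VI the cytoplasmic ratio of Col6a1 to Col6a2 was 2.32 and 2.32 in MEFs and 2.77 and 2.73 at day 3. With the knockdown it was 2.67 and 2.31. The ratio of Col6a3 to Col6a1 was 0.346 and 0.327 in MEFs and 0.265 and 0.252 at day 3. With the knockdown it was 0.212 and 0.236.

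Nudt21 knockdown at day 3 went with a further loss of fibrillar collagen RNA. The collagens took 0.672% and 0.704% of cytoplasmic reads, a mean 1.62 times lower than in the day 3 control. Of 41 members tested 24 were lower and 2 higher, where 25% of all genes were lower and 24.6% higher, and the medians were -0.77 for the members and -0.01 for all genes. Of 10 fibrillar genes tested 9 fell, with a class median of -1.72. Col1a1 fell from 867.3 and 898.8 CPM to 230.8 and 245.6 CPM (-1.91 ± 0.06), Col3a1 from 835.7 and 774.3 CPM to 203.0 and 200.7 CPM (-2.01 ± 0.06), and Col1a2 from 3635 and 3529 CPM to 1166 and 1182 CPM (-1.63 ± 0.05). Libraries of the 2 conditions did not overlap for these chains. Col8a2, a short-chain collagen of the cornea, fell by 2.09 on the log2 scale, Col16a1 by 1.98, Col11a1 and Col12a1 each by 1.92, Col5a1 by 1.81, Col2a1 by 1.46, Col15a1 by 1.21 and Col5a2 by 0.77.

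Col4a1 rose with the knockdown, from 1906 and 1821 CPM to 2341 and 2571 CPM (0.38 ± 0.05, edgeR adjusted p = 1.55e-05), and became the highest collagen per kilobase in that cytoplasm at 371 CPM per kilobase, ahead of Col1a2 at 220. Its neighbour Col4a2 fell slightly, from 1326 and 1277 CPM to 1116 and 1180 CPM (-0.20 ± 0.05, edgeR adjusted p = 0.00492), a call that ended without day 3 control cytoplasm replicate 1 (edgeR adjusted p = 0.0847) and in a fit of all groups together (edgeR adjusted p = 0.209). Collagen VI differed less, with Col6a3 at -0.40, Col6a1 at -0.19 and Col6a2 at -0.04 (edgeR adjusted p = 0.614). The call on Col6a1 ended when any of 3 of the 4 libraries was left out. Col17a1 rose to 5.495 and 5.816 CPM (1.47 ± 0.25). Fibroblast markers moved alongside, from sums of 3033 and 3036 CPM in day 3 control cytoplasm to 1408 and 1539 CPM with the knockdown, and ES cell markers summed to 714.0 and 826.4 CPM with the knockdown. Of the fibroblast markers 7 of 11 were lower and of the 6 ES cell markers tested 4 were higher and 1 lower, and their part in the collagen changes was not tested.

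Processing genes were called in cytoplasm as follows. At day 3 against MEFs, where 33.7% of all genes were lower and 35.5% higher, 11 of 15 hydroxylation genes, 12 of 14 folding and export genes, 4 of 6 propeptide genes, all 5 cross-linking genes and 20 of 28 other matrix genes were lower, while 3, 0, 1, 0 and 8 were higher. Lox had 134.4 and 124.8 CPM at day 3 (-4.11 ± 0.06), P4ha1 differed by -2.73 and Creb3l1, a transcription factor of collagen genes, by -4.02. The propeptide enhancer Pcolce2 (2.39) and the prolyl hydroxylation scaffold Crtap (0.28) were higher. With the Nudt21 knockdown 7, 9, 4, 3 and 24 genes of these lists were lower and 3, 3, 1, 2 and 2 higher, beside 25% and 24.6% of all genes.

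At day 3 collagens were still lower in P-bodies than in cytoplasm as a summed share, by less than in MEFs. They took 0.748% and 0.637% of P-body reads in day 3 control cells and 0.396% and 0.461% with the knockdown, and the ratio of mean cytoplasm to P-body share was 1.61 in both conditions against 3.10 in MEFs. Of 40 members tested in the day 3 control 4 were lower and none higher, where 0.45% of all genes were lower and 0.196% higher. The median was -0.61 for the members and -0.01 for all genes. All 19 members with 10 CPM or more lay below 0, a level to which the values for all genes are not limited. The 4 called were Col6a3 (-1.03 ± 0.12), Col4a2 (-0.92 ± 0.12), Col1a1 (-0.89 ± 0.10) and Col5a1 (-0.75 ± 0.10), each with an edgeR adjusted p of 0.0495. Col1a1 had 486.3 and 454.8 CPM in P-bodies against 867.3 and 898.8 CPM in cytoplasm, with no overlap. Col4a1 at -0.85 ± 0.12 (edgeR adjusted p = 0.0504), Col1a2 at -0.52 (edgeR adjusted p = 0.0551) and Col3a1 at -0.48 ± 0.16 (edgeR adjusted p = 0.149) did not pass. The number of calls was unstable: 28 members were called without P-body replicate 1 and 19 without P-body replicate 2, DESeq2 called 17, and the calls on Col1a1 and Col5a1 ended without cytoplasm replicate 2 (largest edgeR adjusted p = 0.225).

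With the Nudt21 knockdown 18 of 40 members were lower in P-bodies and none higher, where 12.8% of all genes were lower and 9.04% higher, with medians of -0.52 and 0.00. All 18 members with 10 CPM or more lay below 0 and 14 of them were called, while the shares over all genes are not limited to that level. Col1a1 had 103.3 and 124.0 CPM in P-bodies against 230.8 and 245.6 CPM in cytoplasm (-1.06 ± 0.11, edgeR adjusted p = 0.000287). Col6a3, at 139.9 and 140.2 CPM in P-bodies against 274.8 and 281.8 CPM in cytoplasm, differed by -0.98 ± 0.09. Col4a2 (-0.86 ± 0.09), Col4a1 (-0.74 ± 0.10), Col5a1 (-0.71 ± 0.11), Col2a1 (-0.71), Col6a2 (-0.60), Col18a1 (-0.54), Col6a1 (-0.53), Col1a2 (-0.52 ± 0.09), Col11a1 (-0.50) and Col3a1 (-0.41 ± 0.09) were called too, and the X-linked basement membrane chain Col4a6 differed most at -1.70. Col5a2 and Col12a1, each at -0.23, were not called. Only 9 members were called without cytoplasm replicate 1 and 7 without cytoplasm replicate 2, and the calls on Col2a1, Col18a1, Col1a2, Col6a1, Col11a1, Col3a1 and Col4a6 each ended without at least 1 of these libraries.

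The change in enrichment was tested as the day 3 control log2 ratio minus the MEF log2 ratio, in a fit that shares all 8 libraries with the separate fits. Of 43 members tested 16 were higher and 1 lower, where 9.59% of all genes were higher and 5.13% lower, with medians of 0.63 and 0.00. All 16 higher members had 10 CPM or more, of 20 such members, a level to which the shares over all genes are not limited. The largest among those called were Col5a3 (2.095 ± 0.27), Col3a1 (1.72 ± 0.19, edgeR adjusted p = 0.000952) and Col6a2 (1.64 ± 0.16, edgeR adjusted p = 0.000577). Col6a1 (1.45 ± 0.19), Col18a1 (1.44 ± 0.19), Col6a3 (1.42 ± 0.15), Col11a1 (1.31), Col5a2 (1.23) and Col1a2 (1.001 ± 0.12, edgeR adjusted p = 0.00142) came next. For Col3a1 the P-body to cytoplasm ratio thus moved from -2.16 to -0.48, and for Col2a1 the difference was -0.00 ± 0.16. The count was 10 without MEF cytoplasm replicate 1 and 9 without either day 3 control cytoplasm library. Col4a2 (0.92 ± 0.16), Col1a1 (0.84 ± 0.15), Col12a1 (0.64), Col4a1 (0.56 ± 0.16) and Col5a1 (0.52 ± 0.13) lost their calls in 2, 3, 5, 6 and 6 of the 8 fits that left out a library. The 1 member that was lower, Col23a1 (-4.27 ± 1.11), lost its call in 6 of them. Serpinh1 differed by 1.37 ± 0.14 and Lox by 1.25, and of the lists 6 of the hydroxylation genes, 6 of the folding genes, 4 of the cross-linking genes and 17 of the other matrix genes were higher, against 1, 0, 0 and 2 lower, beside 9.59% and 5.13% of all genes. In the propeptide list none was called.

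Between the Nudt21 knockdown and the day 3 control no member of 42 tested differed in enrichment. The test called 0% of all genes higher and 0.0118% lower. At an unadjusted p under 0.05 there were 2 members, Col5a3 and Col24a1, and 819 genes, and 2 members were called without day 3 control P-body replicate 1. Col1a1 differed by -0.14 ± 0.15 and Col4a1 by 0.14 ± 0.18. The lack of a call does not show that enrichment was equal.

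ES cells held little collagen RNA, and of other kinds. In naive ES cytoplasm the collagens took 0.0616% and 0.0810% of reads, a mean 66.8 times lower than in MEFs. Of 41 members tested against MEFs 27 were lower and 8 higher, where 35.9% of all genes were lower and 36% higher. The median was -6.31, or -5.38 when the 7 members without a read on 1 side were set at a bound of 3 reads over the group, and -0.01 for all genes. Col1a1 was at 0.94 and 1.38 CPM (-13.58 ± 0.24), and Col1a2 differed by -15.42 ± 0.33. Col3a1 had 3 reads in the naive cytoplasm libraries, and its MEF level was 84560 times higher by the ratio of counts, with a 95% counting interval of 28940 to 410100. Col8a1 had no read there, which makes its MEF level at least 3695-fold higher against a floor of 3 reads over the group. Col6a1 and Col6a3 differed by -12.77 and -11.39 and Col5a1 by -7.82 ± 0.24. The basement membrane genes differed less, Col4a1 by -5.64 ± 0.14 and Col4a2 by -4.87 ± 0.17.

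Col18a1 was the main collagen of naive ES cells and stood above its MEF level. It had 314.4 and 479.6 CPM in naive cytoplasm against 155.8 and 146.3 CPM in MEF cytoplasm (1.14 ± 0.19, edgeR adjusted p = 0.00391). Col9a2, a FACIT chain best known from cartilage, had 152.4 and 182.9 CPM and was the furthest above MEFs among members with a fitted value (9.45 ± 0.21). The transmembrane collagen Col13a1, at 12.8 and 10.7 CPM, differed by 6.83 ± 0.50, and Col26a1, at 9.79 and 12.5 CPM, by 6.28. Per kilobase Col18a1 stood at 71.0 and Col9a2 at 57.3 CPM per kilobase, with overlapping ranges, and Col4a2 and Col4a1 at 5.03 and 4.22. Markers of cartilage cells summed to 18.01 and 21.97 CPM in naive cytoplasm, 50.1 and 47.4 in primed and 47.3 and 48.3 in MEF cytoplasm.

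In primed ES cells collagen RNA was more abundant, at 0.294% and 0.273% of cytoplasmic reads, a mean 3.97 times that of naive cells. Col18a1 alone took 77.04% and 77.24% of these collagen reads, and 51.02% and 59.2% of those in naive cytoplasm, so the summed ratio is largely that of 1 gene. Of 32 members tested 16 were higher and 3 lower, where 21.6% of all genes were higher and 22.1% lower, with medians of 1.84 and 0.00. Col18a1 rose to 2263 and 2109 CPM (2.27 ± 0.19, edgeR adjusted p = 0.000713). Col4a1 rose from 27.3 and 28.6 to 229.1 and 205.3 CPM (2.76 ± 0.13) and Col4a2 from 35.3 and 29.6 to 146.8 and 134.0 CPM (1.91 ± 0.16). Col2a1 rose from 6.73 and 7.54 to 114.6 and 98.5 CPM (3.70 ± 0.17, edgeR adjusted p = 0.000154). Primed and naive libraries lay apart for all 4 genes. Col9a2 went the other way, to 17.6 and 18.8 CPM (-3.40 ± 0.15, edgeR adjusted p = 0.000145), and Col5a2 (-1.63) and Col26a1 (-1.50) were lower too, although either call ended without primed cytoplasm replicate 1. Col6a5 and Col1a2 were higher by 4.68 ± 0.55 and 4.53. Col6a2 and Col8a2 had 3 and 1 reads in naive cytoplasm, and their primed levels were 81.5 times (27.3 to 399.8) and 195.2 times (34.4 to 7777) higher by the ratio of counts, with 95% counting intervals. Col1a1 (1.39, edgeR adjusted p = 0.0531) and Col5a1 (-0.42, edgeR adjusted p = 0.186) were not called. There were 10 calls without primed cytoplasm replicate 1 and 11 without replicate 2. Markers of primitive or parietal endoderm, cells that make much collagen IV, summed to 174.5 and 96.2 CPM in naive and 171.8 and 152.3 CPM in primed cytoplasm, so the sums overlapped. Of these 8 markers 5 were higher in primed cytoplasm and 1 lower (median 2.35), among 21.6% of all genes higher. Endothelial markers summed to 350.1 and 363.5 CPM in naive and 28.1 and 29.6 CPM in primed cytoplasm, and all 3 tested were lower in primed cells. Of the 5 listed, 3 reached 1 CPM in naive cytoplasm, and Cdh5 and Emcn had no read there. The part of these markers in the collagen levels was not tested.

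Per kilobase the primed order was Col18a1 at 391 CPM per kilobase, Col4a1 at 32.8, Col4a2 at 21.8 and Col2a1 at 20.9, where the ranges of the last pair overlapped. Of the processing lists 5 of the hydroxylation, 2 of the folding, 2 of the propeptide, 2 of the cross-linking and 10 of the other matrix genes were higher in primed than in naive cytoplasm, and 5, 5, 2, 1 and 6 were lower, beside 21.6% and 22.1% of all genes. Against MEFs, naive cytoplasm was lower for 12, 11, 6, 5 and 25 genes of these lists and higher for 2, 2, 0, 0 and 3, beside 35.9% and 36% of all genes.

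**Figure D3:**
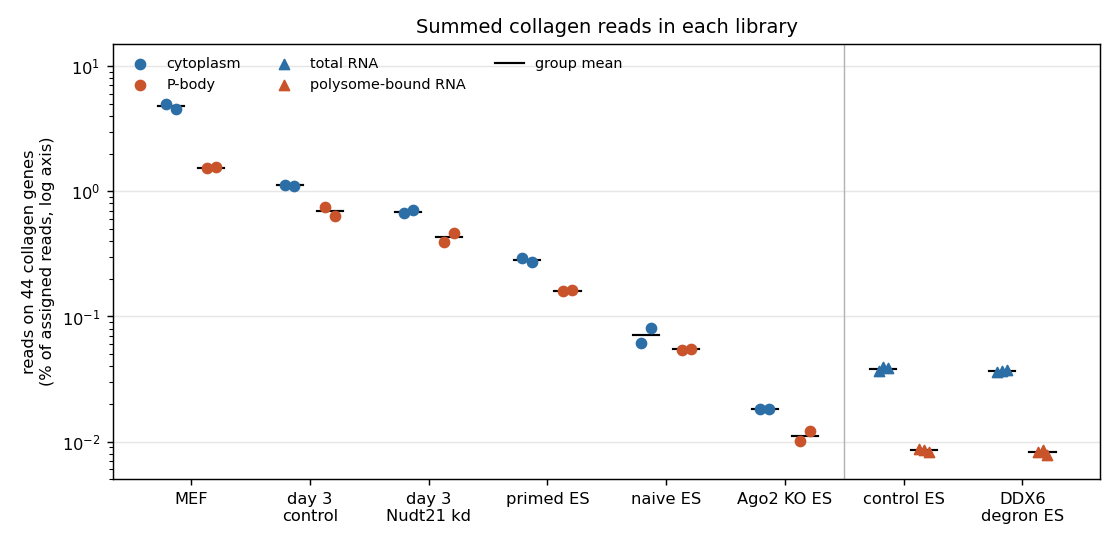
Share of reads on the 44 collagen genes in each library (y axis, percent of reads on genes, log scale) by group (x axis). Each point is 1 library, and the pairs of fractions stand side by side. MEF cytoplasm is at 4.97% and 4.56%, naive and primed ES cells are far lower, and the P-body or polysome libraries lie below their cytoplasm or total RNA in every pair of groups. The Ago2 knockout libraries, and the polysome and total RNA libraries, were counted separately from the rest, so their levels are not set against the other groups.

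The P-body share of naive cells was 0.0541% and 0.0550%, and the ratio of mean cytoplasm to P-body share was 1.31, the lowest of the 6 conditions. In these P-bodies 78.32% and 77.89% of the collagen reads fell to Col18a1, so this ratio mostly reflects that gene. Of 29 members tested 7 were lower in naive P-bodies and none higher, where 15.4% of all genes were lower and 22.6% higher, with medians of -0.83 and -0.06. Col9a2 had 53.95 and 61.20 CPM in P-bodies against 152.4 and 182.9 CPM in cytoplasm (-1.32 ± 0.12, edgeR adjusted p = 0.00119), without overlap. Col4a2, at 9.19 and 9.31 CPM in P-bodies against 35.3 and 29.6, differed by -1.59 ± 0.18, and Col4a1, at 12.9 and 10.4 CPM against 27.3 and 28.6, by -1.04 ± 0.18. Col26a1 (-1.87 ± 0.29), Col5a2 (-1.95 ± 0.44), Col5a1 (-1.22 ± 0.23) and Col13a1 (-1.02 ± 0.24) were the other calls. The most abundant member behaved differently: Col18a1 had 423.9 and 428.2 CPM in P-bodies and 314.4 and 479.6 CPM in cytoplasm, overlapping groups with a difference of 0.33 ± 0.18 (edgeR adjusted p = 0.21). Leaving out P-body replicate 1 left 2 calls, P-body replicate 2 left 3, and without cytoplasm replicate 2 there were 15. The calls on Col4a1, Col5a1 and Col5a2 ended without either P-body library, and that on Col26a1 without P-body replicate 1.

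Primed P-bodies held 0.159% and 0.163% of reads on collagens, and 17 of 38 members tested were lower and 4 higher, where 24.2% of all genes were lower and 26.5% higher, with medians of -0.61 and 0.00. Both collagen IV chains were strongly depleted. Col4a1 had 52.0 and 51.4 CPM in P-bodies against 229.1 and 205.3 CPM in cytoplasm (-2.04 ± 0.08, edgeR adjusted p = 9.65e-10), and Col4a2 had 30.2 and 34.1 CPM against 146.8 and 134.0 CPM (-2.09 ± 0.09, edgeR adjusted p = 2.39e-09). Col13a1 differed most, at 1.25 and 1.35 CPM in P-bodies against 15.5 and 14.6 CPM in cytoplasm (-3.48 ± 0.23). Col5a3 followed at -2.35 ± 0.23, then Col5a1 at -1.36 ± 0.18 and Col9a2 at -0.74 ± 0.15. Col18a1, at 1270 and 1306 CPM in P-bodies against 2263 and 2109 CPM in cytoplasm, was lower by a small, tightly measured amount (-0.73 ± 0.04, edgeR adjusted p = 2.29e-08). Col2a1 was the abundant exception, with 129.5 and 128.3 CPM in P-bodies and 114.6 and 98.5 CPM in cytoplasm (0.31 ± 0.08, edgeR adjusted p = 0.00554). Col11a1 (0.92 ± 0.29) and Col26a1 (0.77 ± 0.29) were higher too at a few CPM, and each call ended in 2 of the 4 fits that left out a library. Col8a1, the last of the 4, had 3 reads in primed cytoplasm and a P-body level 7.45 times higher by the ratio of counts, with a counting interval of 2.35 to 37.8.

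Enrichment differed between primed and naive cells for 4 members in the higher and 5 in the lower direction, of 38 tested, where 11.4% of all genes were higher and 13.9% lower, with medians of -0.27 and 0.04. Lower in primed cells were Col4a1 (-0.85 ± 0.17, edgeR adjusted p = 0.00652), Col18a1 (-0.92 ± 0.20, edgeR adjusted p = 0.0113), Col13a1 (-2.33 ± 0.32), Col6a5 (-3.21) and Col6a2 (-2.47). Higher were Col26a1 (2.79 ± 0.49), Col11a1 (2.45), Col9a2 (0.71 ± 0.18) and Col2a1 (0.63 ± 0.18, edgeR adjusted p = 0.0303). Without naive P-body replicate 1 there were 4 calls and without primed P-body replicate 1 there were 5. Col18a1 lost its call without naive P-body replicate 2 (edgeR adjusted p = 0.0542), Col6a5 in 1 of the 8 such fits, Col9a2 in 4, Col11a1 in 5 and Col2a1 and Col6a2 in 6 each.

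Naive cells against MEFs gave 6 members higher and 1 lower of 44 tested, where 21.5% of all genes were higher and 19.8% lower, with medians of 0.23 and -0.17. Col18a1 differed by 2.12 ± 0.25 (edgeR adjusted p = 0.000124), from depletion in MEF P-bodies to no detectable depletion in naive ones. Col5a3 differed by 1.64 ± 0.32. Col28a1, at a mean of 0.57 CPM and with no read in naive cytoplasm, was the last of the 6, and the lower member was Col11a2 (-4.38 ± 1.33, at a mean of 0.71 CPM), which had 3 reads in naive P-bodies. Collagen IV did not pass, with Col4a1 at 0.14 ± 0.17 (edgeR adjusted p = 0.586) and Col4a2 at 0.02 ± 0.19, and neither did Col1a1 at -0.19 or Col5a1 at -0.18. The values of Col6a2 (4.15), Col6a1 (2.59) and Col14a1 (4.02) rest on few naive reads, 11 in P-bodies and 3 in cytoplasm for Col6a2. The calls on Col6a1 and Col14a1 ended in 2 and 5 of the 8 fits without a library. The count was 3 without naive P-body replicate 2 and 4 without naive cytoplasm replicate 2 or MEF cytoplasm replicate 1.

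Ago2 knockout ES cells were measured in a table of their own, so levels are not set against the other ES cells. Collagens took 0.0182% and 0.0181% of cytoplasmic and 0.0102% and 0.0121% of P-body reads. Despite these close shares, the 2 cytoplasm libraries differed over all genes more than any other replicate pair. The chi-square per degree of freedom was 334 between them and 52.05 in the next pair, the day 3 control P-bodies. ES cell markers summed to 5669 CPM in the lower and 9607 CPM in the higher of these cytoplasm libraries. Col9a2, with 74.4 and 51.8 CPM in cytoplasm and 43.8 and 45.8 CPM in P-bodies, and Col18a1 stood highest. Col18a1 had 54 and 61.8 CPM in cytoplasm, overlapping with Col9a2, and 28.0 and 34.6 CPM in P-bodies. Of 25 members tested 1 was lower and none higher, where 1.05% of all genes were lower and 5.47% higher, with medians of -0.37 and 0.04. The member was Col5a1, with 3.78 and 6.92 CPM in P-bodies against 12.01 and 20.24 CPM in cytoplasm (-1.64 ± 0.39, edgeR adjusted p = 0.0415). That call ended without P-body replicate 1 (edgeR adjusted p = 0.274), and 5 members were called without cytoplasm replicate 1 and 3 without cytoplasm replicate 2. Col18a1 (-0.93 ± 0.25, edgeR adjusted p = 0.062), Col4a2 (-1.11 ± 0.31, edgeR adjusted p = 0.066) and Col4a1 (-0.93 ± 0.32, edgeR adjusted p = 0.119) did not pass.

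**Figure D4:**
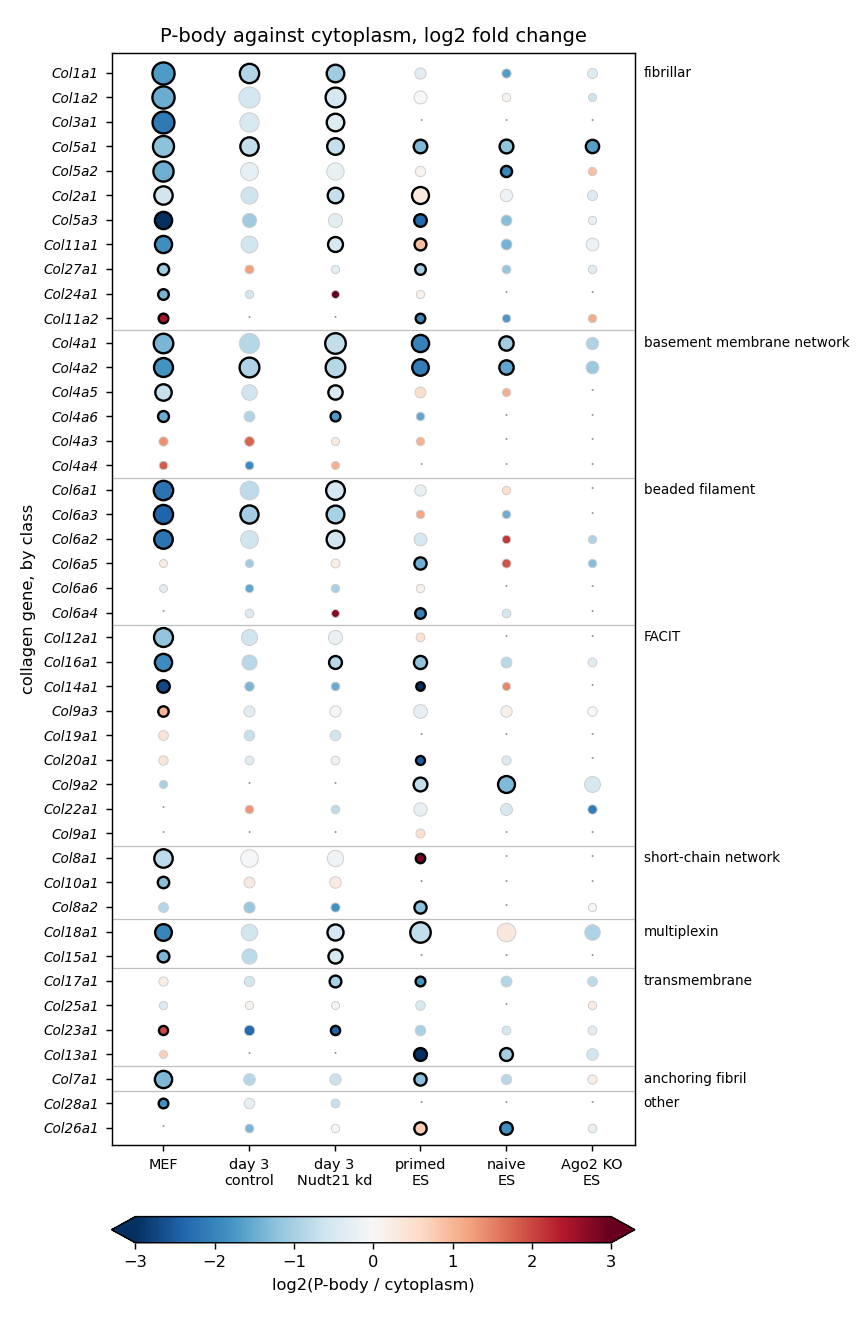
P-body enrichment of all 44 collagen genes (y axis, ordered by class and MEF cytoplasm level) in 6 conditions (x axis). Colour is the log2 ratio of P-body to cytoplasm, dot size grows with mean CPM, a black outline marks an edgeR adjusted p under 0.05 and a small dot a gene with too few reads to test. Col5a1 is outlined as depleted in all 6 conditions, Col4a2 in 5 and Col4a1 in 4.

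Across the 6 conditions Col5a1 was called lower in all 6, Col4a2 in 5 and Col4a1 in 4. A further 4 members were lower in 3 conditions, 17 in 2 and 12 in 1, and 8 were never called lower. In the day 3 control, naive cells and Ago2 knockout Col5a1 lost its call in at least 1 fit that left out a library. Col4a1 did so in naive cells. Of the 18 members tested in all 6 conditions 15 were lower in at least 2 (83.3%) and 3 in at least 4 (16.7%), where 25.4% and 3.33% of the 12073 genes tested in all 6 were. The members were not matched to the other genes for abundance, and these shares are a description. In naive P-bodies 7 of 15 hydroxylation genes, 4 of 14 folding genes, 1 of 5 propeptide genes, 2 of 4 cross-linking genes and 8 of 22 other matrix genes were lower and 1, 3, 0, 0 and 1 higher, and in primed P-bodies 9, 6, 5, 4 and 16 were lower and 1, 2, 0, 0 and 3 higher, beside 15.4% and 22.6% of all genes in naive and 24.2% and 26.5% in primed P-bodies. Plod2, a lysyl hydroxylase, was higher in naive P-bodies (1.35 ± 0.12) and in primed ones (0.28), unlike in MEFs. In the day 3 control none of the 4 processing lists had a call and 2 other matrix genes were lower, with Serpinh1 at -0.16. With the Nudt21 knockdown 1, 2, 1, 1 and 14 genes were lower and 1, 1, 0, 0 and 0 higher, beside 12.8% and 9.04% of all genes. In the Ago2 knockout 2 other matrix genes were lower and no other listed gene was called.

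Subtracting the trend with length and GC content brought the members' median closer to 0 in each condition, to -0.21 in the day 3 control, -0.04 with the Nudt21 knockdown, -0.36 in naive and -0.38 in primed cells, and to 0.22 in the Ago2 knockout. GC content moved with enrichment over all genes in naive cells, with a Spearman correlation across genes of -0.60.

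Polysome-bound RNA was measured in naive-type ES cells of the degron line, where collagens took 0.0367% to 0.0393% of total RNA reads and 0.0083% to 0.0088% of polysome reads in the control. The ratio of the means was 4.47, and Col18a1 alone took 76.27% to 76.97% of the collagen reads in total RNA and 60.5% to 61.76% on polysomes. Ribosome occupancy is given as the log2 fold change from total to polysome-bound RNA. Of 26 members tested in the control 8 were lower on polysomes and none higher, where 24.1% of all genes were lower and 18.8% higher. The median was -0.73 for the members and 0.02 for all genes, and the members' estimates all lay below 0. After the trend with length and GC content was subtracted the median was -0.32 and 8 of the 26 estimates lay above 0.

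Col18a1 was the main collagen here too, with 279.7, 299.5 and 298.5 CPM in total RNA and 53.7, 51.9 and 51.1 CPM on polysomes (-2.65 ± 0.07, edgeR adjusted p = 1.16e-13). Col4a2 had the lowest occupancy, at 1.53, 2.21 and 1.73 CPM on polysomes against 16.7, 17.8 and 14.1 CPM in total RNA (-3.28 ± 0.16, edgeR adjusted p = 4.37e-11). Col4a1 had 2.54, 3.03 and 2.18 CPM on polysomes against 17.1, 18.6 and 15.7 CPM (-2.87 ± 0.14). All polysome libraries lay below all total RNA libraries for these 3 genes, by several fold. Col5a1, at 0.83, 1.37 and 0.75 CPM on polysomes against 4.70, 5.59 and 5.51 CPM, differed by -2.51 ± 0.22. Col9a2 was less depleted, with 14.74, 13.83 and 15.03 CPM on polysomes against 31.2, 33.0 and 37.3 CPM (-1.39 ± 0.09, edgeR adjusted p = 2.09e-09). Col13a1 (-1.38) was called as well. The calls on Col11a1 (-1.42) and Col2a1 (-0.56 ± 0.19, edgeR adjusted p = 0.024) each ended in 4 of the 6 fits that left out a library. Col26a1, with 2.60, 2.58 and 1.80 CPM on polysomes and 1.75, 2.65 and 2.56 CPM in total RNA, overlapped between fractions.

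**Figure D5:**
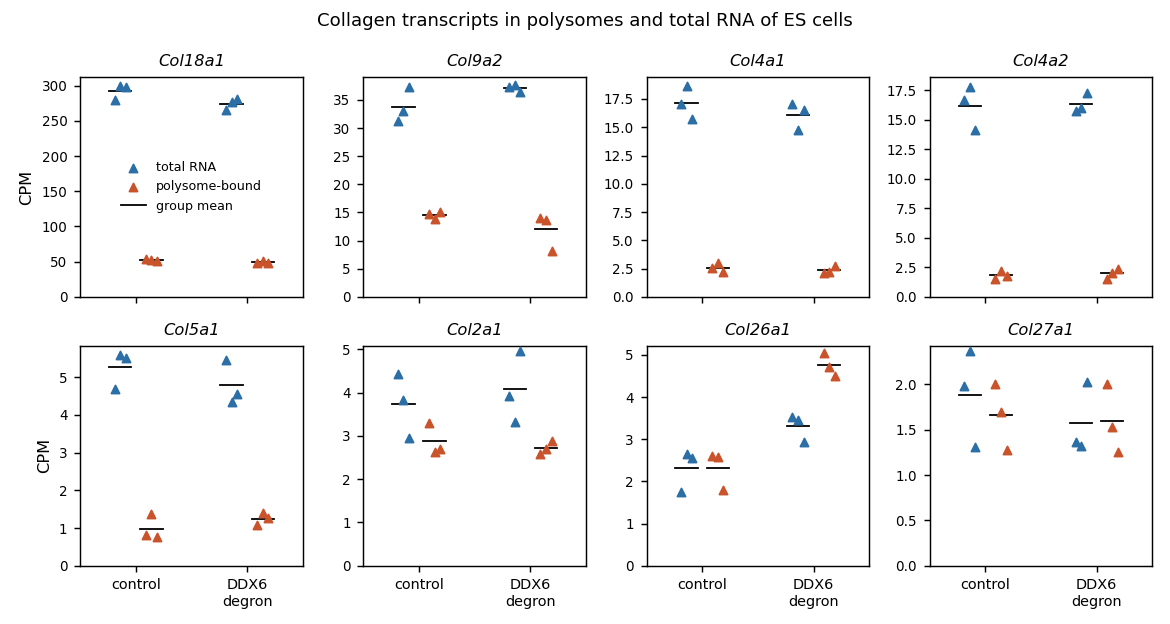
CPM per library (y axis, linear from 0, scaled for each gene) of 8 collagen genes in total and polysome-bound RNA, in control and DDX6 degron ES cells (x axis). Each point is 1 of 3 libraries and bars are means. Col18a1, Col4a1, Col4a2 and Col5a1 lie several fold lower on polysomes in both conditions, Col9a2 less so, and Col26a1 is near equal in the control.

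With DDX6 degraded collagens took 0.0357% to 0.0376% of total and 0.0078% to 0.0086% of polysome reads, a ratio of means of 4.45. Of 27 members tested 13 were lower on polysomes and none higher, where 26.8% of all genes were lower and 24% higher, with medians of -0.94 and 0.02. After subtracting the trend the median was -0.50 and 11 members lay above 0. Col18a1 had 264.9, 276.7 and 281.7 CPM in total RNA and 48.4, 50.6 and 48.1 CPM on polysomes (-2.67 ± 0.05, edgeR adjusted p = 1.29e-21). Col4a2 differed by -3.24 ± 0.13, Col4a1 by -2.98 ± 0.12, Col5a1 by -2.10 ± 0.19, Col9a2 by -1.77 ± 0.10 and Col2a1 by -0.78 ± 0.17. Col1a2 had 2 reads on polysomes, and its total RNA level was 9.93 times higher by the ratio of counts, with an interval of 2.40 to 87.9. Col26a1 had 5.04, 4.70 and 4.50 CPM on polysomes and 3.53, 3.47 and 2.93 CPM in total RNA and was not called (0.35, edgeR adjusted p = 0.0579).

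The change in occupancy from control to degron was called for none of 32 members and for 0% of all genes in either direction by edgeR. At an unadjusted p under 0.05 there were 844 genes and 1 member, Col9a2 (-0.39 ± 0.16, edgeR adjusted p = 0.88), and DESeq2 called no member. Col18a1 differed by -0.02 ± 0.07, Col4a1 by -0.12 ± 0.19 and Col4a2 by 0.04 ± 0.22. With no gene called at all, the lack of a call does not show that occupancy was equal. Total RNA likewise gave no call among 27 members, where 1.24% of all genes were higher and 2.07% lower. Unadjusted p-values under 0.05 fell to Col26a1, Col5a3 and Col6a4, DESeq2 called no member, and 1 member was called without control total replicate 3. Col18a1 in total RNA differed by -0.09 ± 0.05 (edgeR adjusted p = 0.361).

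Other genes of collagen production were called on polysomes in control cells as follows, beside 24.1% of all genes lower and 18.8% higher. Of the hydroxylation genes 7 of 15 were lower, of the folding genes 7 of 14 with 1 higher, of the propeptide genes 3 of 5, of the cross-linking genes 1 of 4 and of the other matrix genes 16 of 24. In degron cells 8 of 14, 7 of 14, 3 of 6, 3 of 4 and 17 of 23 were lower and 1, 4, 0, 0 and 0 higher, beside 26.8% and 24% of all genes. Serpinh1 differed by -0.71 ± 0.07 in the control, P4hb by -0.78, P4ha1 by -0.68, Plod2 by -1.15 and the matrix gene Fn1 by -1.10. For the change in occupancy with the degron the test made no call on any gene, these lists included. Occupancy was lower for longer transcripts over all genes in the control (Spearman correlation across genes -0.36).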

How the data were processed

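RNA-seq was analysed from 36 libraries in 16 groups. The authors deposited estimated counts per gene that are not all whole: a table of 20 P-body and cytoplasm libraries made, per the labels, with HISAT2 and featureCounts on mm10 (17.6% to 25.7% of values not whole), and salmon tables of 12 polysome and total RNA libraries and 4 Ago2 knockout libraries. The P-body and cytoplasm libraries (SMART-Seq) do not mark strand, the polysome and total RNA libraries came from a directional kit, and whether counting used strand is not given in the sources used here. How reads were split to give fractions is not given in the sources used here. A further 10 tables of the authors' own comparisons (fold changes and p-values) were not used. Values were rounded to whole numbers. CPM are counts scaled by the reads on genes of each library.

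Each comparison was fitted with edgeR 4.0.16 in R 4.3.3 (quasi-likelihood test, TMM scaling), with only the groups compared, genes with at least 10 reads over their libraries and Benjamini-Hochberg adjustment over all genes tested at 0.05. Differences in enrichment are contrasts over 4 groups, the first-named condition minus the second. Alternatives were DESeq2 1.42.0, its size factors in edgeR, other filters on low counts, all groups in a single fit, the replicate number as a block, a length and GC trend (mgcv 1.9.3) and leaving out each library. Scripts were tested on simulated data. Pairs of replicates differed by more than sampling noise, and none was counted as 1 sample. Intervals cover counting error only.

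Named genes were 14 fixed collagens, 5 fixed processing genes and, per comparison and direction, the 3 collagens and 2 processing genes with the largest called change at a mean of at least 1 CPM, and further members were named for completeness after their values were seen. The members, classes, 5 processing and matrix lists and marker lists were chosen with earlier results of these data known. Other marker lists gave, in MEF cytoplasm, sums of 186.3 and 184.8 CPM for muscle and 0.03 and 0.13 for keratinocytes. Sequences came from the mm10 reference genome and its annotation.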

Additional observations from a re-analysis of the deposited data

Results flagged for a closer look

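Enrichment in P-bodies differed between conditions, by the test of the difference itself in edgeR, for 17 collagen genes between the day 3 control and MEFs, 7 between naive ES cells and MEFs and 9 between primed and naive ES cells. All values are differences of log2 ratios, first condition minus second, and no explanation was tested.

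For the day 3 control against MEFs they were, among fibrillar chains, 2.095 for Col5a3, 1.72 for Col3a1, 1.31 for Col11a1, 1.23 for Col5a2, 1.001 for Col1a2, 0.84 for Col1a1 and 0.52 for Col5a1. Among network and associated chains they were 1.64 for Col6a2, 1.09 for Col16a1, 0.79 for Col8a1, 1.45 for Col6a1, 1.42 for Col6a3, 1.44 for Col18a1, 0.92 for Col4a2, 0.56 for Col4a1 and 0.64 for Col12a1. Col23a1, at -4.27, was the only one called in the other direction.

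For naive ES cells against MEFs they were 2.12 for Col18a1, 1.64 for Col5a3, 2.59 for Col6a1, 4.15 for Col6a2, 4.02 for Col14a1 and -4.38 for Col11a2, where the last 4 rest on few reads in naive cells. The remaining call, Col28a1, had no read in naive cytoplasm, so its fitted value is not given. For primed against naive ES cells they were -0.85 for Col4a1, -0.92 for Col18a1, -2.33 for Col13a1, -3.21 for Col6a5, -2.47 for Col6a2, 2.79 for Col26a1, 2.45 for Col11a1, 0.71 for Col9a2 and 0.63 for Col2a1. No group had enough libraries for a test of outlying samples.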

How the results depend on the processing

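Counts of collagen genes called moved most in the day 3 control enrichment, from 4 to 17 with DESeq2, 18 without a filter on low counts and 19 with all groups in a single fit. With all groups in a single fit the naive count was 11 and the primed count 13. The Ago2 knockout count of 1 became 3 with DESeq2, 0 with its size factors and 4 without a filter. Over all genes the split of higher and lower calls moved as well, in the day 3 control from 31 and 71 to 939 and 1166 with DESeq2, 812 and 1128 without a filter and 1951 and 1940 with all groups, and in the Ago2 knockout from 919 and 176 to 1215 and 516 with DESeq2 and 1762 and 881 without a filter. For primed against naive enrichment it moved from 1960 and 2389 to 1350 and 2556 with all groups and 1525 and 2857 with filterByExpr. Fitting all groups moved the median log2 value of all genes from -0.01 to -0.21 for naive against MEF cytoplasm, from 0.00 to 0.14 for primed against naive cytoplasm and from -0.17 to 0.02 for naive against MEF enrichment. The cause was not tested.

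Leaving out each library in turn gave 3 to 28 calls for the day 3 control, 7 to 23 for the Nudt21 knockdown, 2 to 15 for naive and 0 to 5 for Ago2 knockout enrichment, 10 to 25 for primed against naive cytoplasm, 9 to 21, 3 to 8, 0 to 2 and 4 to 11 for the differences in enrichment (day 3 against MEF, naive against MEF, knockdown against day 3 control, primed against naive), and 0 to 1 for total RNA. A group left with 1 library is assumed to vary like the others. After the trend with length and GC content was subtracted the medians were -0.61 (MEF), -0.21 (day 3 control), -0.039 (Nudt21 knockdown), -0.36 (naive), -0.38 (primed) and 0.22 (Ago2 knockout, the other direction). The naive against MEF median of -5.38 with bounds was computed after seeing the data.

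The labels tie no libraries together by number. Deviations of same-numbered libraries correlated by -0.048 to 0.167 in the P-body and cytoplasm table, -0.006 to 0.191 in the polysome and total RNA table and 0.602 in the Ago2 knockout, where 2 numbers are too few to show a pairing. With the replicate number as a replicate block the day 3 control gave 12 calls and the Ago2 knockout 5 (2565 higher and 1613 lower over all genes, from 919 and 176), and over all genes the total RNA calls went from 191 and 318 to 39 and 43. Of the values of named genes none changed direction in any alternative, and 105 of 768 lost their call when a library was left out.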
